A study of Caenorhabditis elegans with 2 samples.

Results

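Binding of REF-2 was described at the genes that encode microRNAs (miRNAs), 261 of the 46890 genes annotated on the 6 nuclear chromosomes of Caenorhabditis elegans. Each gene was given a window that ran from 1000 bp upstream of its 5' end, through the annotated body, to 200 bp beyond its 3' end. The rule for membership reads the annotation and no binding value. Of the 261 genes, 152 were intergenic, 106 lay wholly inside a protein-coding gene and 3 overlapped one in part. Among the 106 inside genes, 74 were transcribed in the direction of the host and 32 against it, with 97 in introns and 9 in exons. The annotated bodies were 52 to 1732 bp long with a median of 95, so most windows reach little beyond a hairpin and its flanks.

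REF-2 is a Zic-family transcription factor with zinc fingers, tagged here at its C-terminal end with GFP and FLAG and precipitated with an antibody to GFP (ChIP-seq). The animals were whole hermaphrodites of strain OP520, with the genotype unc-119(tm4063) III; wgIs520, taken as late embryos 3 hours after eggs were bleached to synchronize them. The 2 biological replicates form 1 group, both carry the mutation and the transgene, and no untagged or control library was analysed here. The sequences that drive the transgene are not given in the labels, and all cell types of the embryo were pooled. Nothing in the labels says that the replicates were separate cultures, so the spread between them may be technical.

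A miRNA is transcribed as a long primary RNA, from which a hairpin is cut by Drosha with its partner Pasha and trimmed by Dicer to a short mature strand. An Argonaute protein carries this strand to messenger RNAs that pair with its seed, bases 2 to 8, and miRNAs with the same seed are treated as a family. In the worm, lin-4 and let-7 set developmental timing, the mir-35 family is needed for embryos to develop, and the mir-51 family is also needed in embryogenesis. Several hairpins often come from 1 primary RNA, so neighbouring genes of a cluster can share a promoter.

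In these data every gene of the mir-51 and mir-35 families had a REF-2 summit in its window, and their mature strands are shown for that reason. They were read from the WBcel235 assembly (ce11) at annotated positions on the strand of each gene, and capitals mark the seed. The 6 genes of the mir-51 family share the seed ACCCGUA, which lies on the 5' arm of the hairpin in mir-51, mir-52 and mir-53 and on the 3' arm in mir-54, mir-55 and mir-56.
mir-51: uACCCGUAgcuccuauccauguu
mir-52: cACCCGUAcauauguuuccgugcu
mir-53: cACCCGUAcauuuguuuccgugcu
mir-54: uACCCGUAaucuucauaauccgag
mir-55: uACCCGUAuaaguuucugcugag
mir-56: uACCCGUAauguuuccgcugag
The 8 genes of the mir-35 family share the seed CACCGGG on the 3' arm, and 3 of the 7 clustered copies are set beside mir-42, which lies in another cluster on the same chromosome.
mir-35: uCACCGGGuggaaacuagcagu
mir-38: uCACCGGGagaaaaacuggagu
mir-41: uCACCGGGugaaaaaucaccua
mir-42: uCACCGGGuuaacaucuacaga

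The DNA under 6 of the summits is shown for the loci that recur below, each as 121 bases centred on the summit and written 5' to 3' on the strand of the miRNA. Capitals in mir-54, mir-35, mir-42 and mir-58.1 mark GAGAG or its complement CTCTC. In mir-80 they mark CCCGCTG, the complement of the Zic-type core CAGCGGG, and in mir-51 GGTTCGA.
mir-51, minus strand, chrIV:11026122-11026242: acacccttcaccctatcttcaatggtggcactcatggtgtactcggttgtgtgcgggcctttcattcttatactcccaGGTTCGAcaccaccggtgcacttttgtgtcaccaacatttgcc
mir-54, minus strand, chrX:13145282-13145402: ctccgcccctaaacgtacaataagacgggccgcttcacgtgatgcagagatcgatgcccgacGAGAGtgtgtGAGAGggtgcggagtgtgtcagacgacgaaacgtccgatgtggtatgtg
mir-35, plus strand, chrII:11537296-11537416: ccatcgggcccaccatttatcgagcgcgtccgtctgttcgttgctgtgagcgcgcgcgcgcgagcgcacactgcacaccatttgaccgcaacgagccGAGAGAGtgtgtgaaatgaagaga
mir-42, plus strand, chrII:11889486-11889606: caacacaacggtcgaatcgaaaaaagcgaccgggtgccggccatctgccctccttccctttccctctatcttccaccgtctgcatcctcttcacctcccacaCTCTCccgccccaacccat
mir-58.1, plus strand, chrIV:3232932-3233052: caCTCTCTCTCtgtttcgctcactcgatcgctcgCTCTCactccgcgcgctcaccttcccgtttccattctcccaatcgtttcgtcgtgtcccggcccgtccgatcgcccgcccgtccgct
mir-80, minus strand, chrIII:8865597-8865717: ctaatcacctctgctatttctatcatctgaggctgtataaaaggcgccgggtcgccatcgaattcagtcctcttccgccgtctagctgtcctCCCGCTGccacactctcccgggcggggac

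REF-2 summits lay in the windows of 33 miRNA genes, and 14 of those genes belong to the mir-35 and mir-51 families. That is 12.6% of the 261, with an exact 95% interval of 8.87% to 17.3% that covers counting error only. The list behind this count is the authors' optimal list of 2129 peaks, whose members are the 2129 strongest peaks of the pooled list by signal. The signal is the authors' own value for a peak, in units the sources used here do not define, and it ranged from 105.5 to 2351 in the optimal list. Over all other genes with the same window rule, 6.53% held an optimal summit, which is 3045 of 46629. That background mixes classes that differ widely, and 9.22% of protein-coding genes (with a median window of 3227 bp against 1295 bp for miRNA genes), 29.9% of tRNA genes, 28.6% of snoRNA genes and 0.508% of piRNA genes held one. Classes nearer to the miRNA share were snRNA genes at 14.0%, ncRNA genes with 779 of 7764 and lincRNA genes at 9.28%, and pseudogenes were at 1.08%. These shares were not tested against one another.

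Because clustered genes share summits, the 33 genes rested on 23 distinct summits. The cluster mir-35 to mir-41 counted 7 genes on 1 summit, mir-54 to mir-56 counted 3, mir-42 to mir-44 counted 3 and mir-73 with mir-74 counted 2. When overlapping windows were merged, an alternative chosen after the data were seen, 21 of 219 merged windows (9.59%) held an optimal summit. Windows of other genes were not merged in this way, so this share has no background. Merged windows with several genes held one in 5 of 24 cases and those with a single gene in 16 of 195.

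Intergenic genes held a summit in 16 of 152 cases (10.5%, interval 6.14% to 16.5%) and genes inside a protein-coding gene in 17 of 106 (16.0%, interval 9.63% to 24.4%). The intervals overlap, and the difference was not tested. Its direction turned under 3 other settings. With only same-strand hosts counted as inside, the shares were 14.1% (26 of 184) for intergenic and 9.46% for inside genes. With 200 bp to either side of the body they were 3.95% and 0.943%, and without summits beside a noncoding gene 5.92% and 3.77%. Counted by summits, 13 of the 23 had an intergenic gene as their nearest miRNA and 10 had a gene inside a host. Among inside genes, those against the strand of the host had a summit in 10 of 32 cases and those with it in 7 of 74. The 10 were the members of the clusters mir-35 to mir-41, in the gene Y62F5A.9, and mir-54 to mir-56, in F09A5.3, so this split rests on 2 summits. All 17 lay in introns of the host, and none of the 9 genes in exons had a summit.

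**Figure D1:**
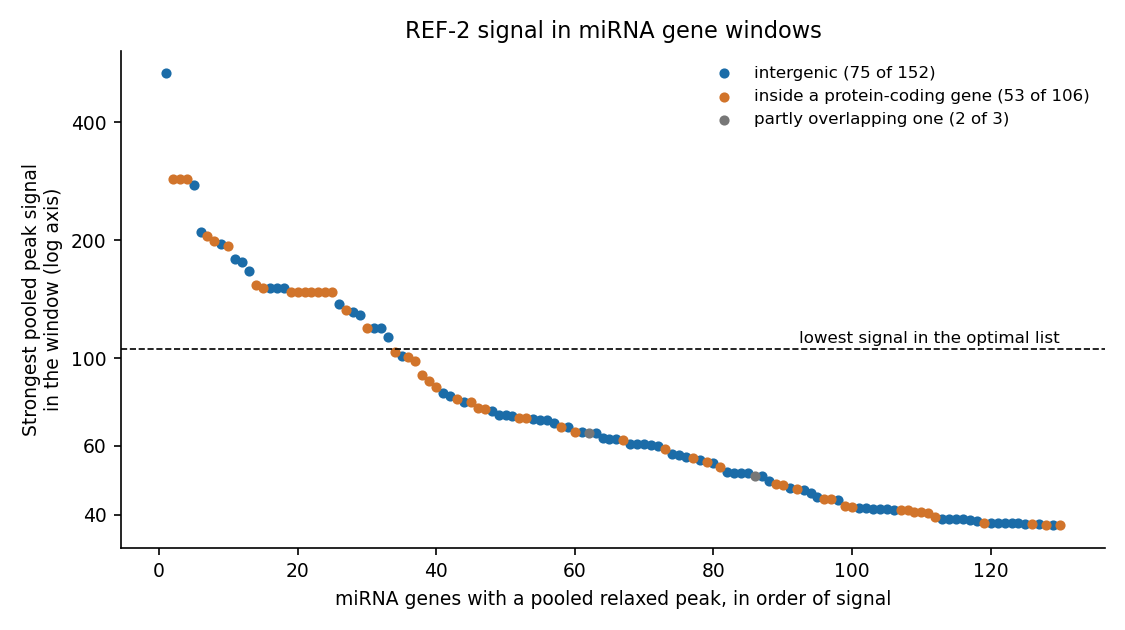
Strongest peak of the pooled relaxed list in the window of each of the 130 miRNA genes that had one, in order of signal on a log axis, coloured by place. The dashed line is the lowest signal of the optimal list, 105.5, and 33 genes lie above it, with mir-51 highest at 533 and the genes of a cluster at equal height.

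The summits in the windows lay mostly upstream of a hairpin, as windows with 1000 bp upstream and 200 bp downstream favour. Measured from the 5' end of the nearest miRNA gene, 21 of the 23 were upstream, 20 of them within 500 bp, and the median distance was 248 bp. The exceptions were mir-52, where the summit fell inside the hairpin, and mir-2211, where it lay beyond the 3' end of the gene. Over all optimal summits, with no window, 19 lay within the 500 bp before the nearest miRNA 5' end and 1 in the 500 bp before that. After the 5' end, 5 lay within the first 500 bp and 6 within the next. From 1000 to 2000 bp upstream there were 14, and no other stretch of 250 bp within 3000 bp held more than 5. The summit of mir-55b is counted there by the 5' end of mir-56, which is nearer.

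**Figure D2:**
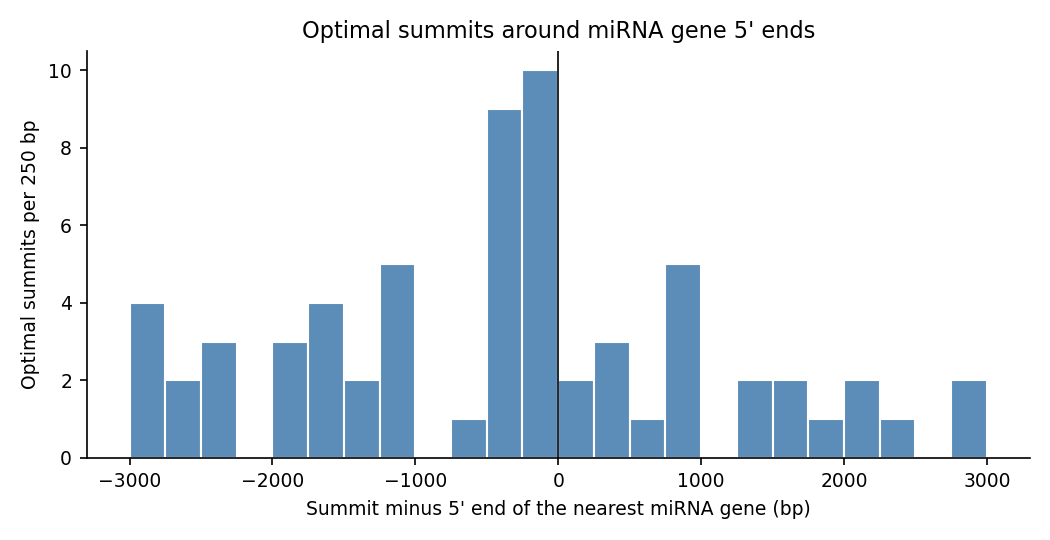
Number of optimal summits per 250 bp of distance from the 5' end of the nearest miRNA gene, with negative distances upstream. The 2 bars next to 0 on the upstream side hold 10 and 9 summits, and the highest of the other bars holds 5.

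Most of these summits were not at the promoter of a protein-coding gene. A protein-coding promoter window (from 1000 bp before the 5' end to 200 bp after it) held 2 of the 23, or 8.70%, against 45.7% of all optimal summits. The 23 were picked by their place in miRNA windows, so this share and the next depend in part on that rule. How far they do was not tested. A noncoding gene other than a miRNA lay within 200 bp of 12 of them, or 52.2%, against 27.9% of all optimal summits. These neighbours were 14 genes, all of the class ncRNA, with no tRNA, snoRNA, snRNA, rRNA or lincRNA gene among them. Genes of piRNAs and antisense RNAs and pseudogenes were not searched. For 6 of the summits the position falls in an exon of such a gene, and whether REF-2 there bears on the miRNA or the ncRNA gene cannot be told apart. The 9 summits with neither kind of neighbour were those of mir-90, mir-80, mir-8192, mir-53, mir-62, mir-42, mir-55b, mir-244 and mir-2211.

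The mir-51 family held the 3 strongest summits of miRNA genes, and all 6 genes had a summit, spread over 4 summits on chromosomes IV and X. The summit 70 bp upstream of mir-51 (WBGene00003279, chrIV:11026013-11026112, minus strand, intergenic) had a pooled signal of 533 and ranked 26 of 2129. Its signal was 228 in replicate 1, at rank 38 of 30000 relaxed peaks, and 300.2 in replicate 2, at rank 20. Both replicates thus placed it among their strongest peaks. The summit falls in an exon of the ncRNA gene F36H1.17, and the nearest 5' end of a protein-coding gene, that of hrg-5, is 3246 bp away.

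On the same strand mir-53, which lies upstream of mir-51, had a summit of its own. It stood 140 bp upstream of mir-53 and 1649 bp from the summit of mir-51. Its signal was 176 in the pooled list (rank 709), 74.9 in replicate 1 (rank 911) and 102 in replicate 2 (rank 588). No ncRNA gene or protein-coding promoter lay at this summit. It is one of 2 members, with mir-8192, that kept a summit under each of the 9 alternative windows and lists tried.

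On chromosome X, 1 summit served mir-54, mir-55 and mir-56, which lie within 404 bp inside the gene F09A5.3 on the opposite strand. It lay 248 bp upstream of mir-54 with a pooled signal of 287 (rank 187). Replicate 1 gave 125 (rank 267) and replicate 2 gave 161 (rank 158). The ncRNA gene F09A5.11 lies within 200 bp of it. A separate summit stood 863 bp further on, 212 bp past the last base of mir-56 and so outside the windows of that cluster. It entered the window of mir-55b, which is annotated over mir-55 on the other strand, at 351 bp upstream of the 5' end of mir-55b. Its pooled signal was 133 (rank 1311), with 51.5 in replicate 1 (rank 2158) and 91.8 in replicate 2 (rank 756).

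The summit of mir-52 lay inside the hairpin, 47 bp past its 5' end, with a pooled signal of 276 (rank 223). Replicate 2 had its peak at the same position with a signal of 152 (rank 197). Replicate 1 instead had a peak of 157 (rank 128) 57 bp upstream of the hairpin and a weaker one of 70.7 (rank 1040) 142 bp past its 5' end. The replicates therefore bound this locus at similar signal but split it differently. The summit also lies in an exon of an ncRNA gene, and 3 ncRNA genes lie within 200 bp.

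**Figure D3:**
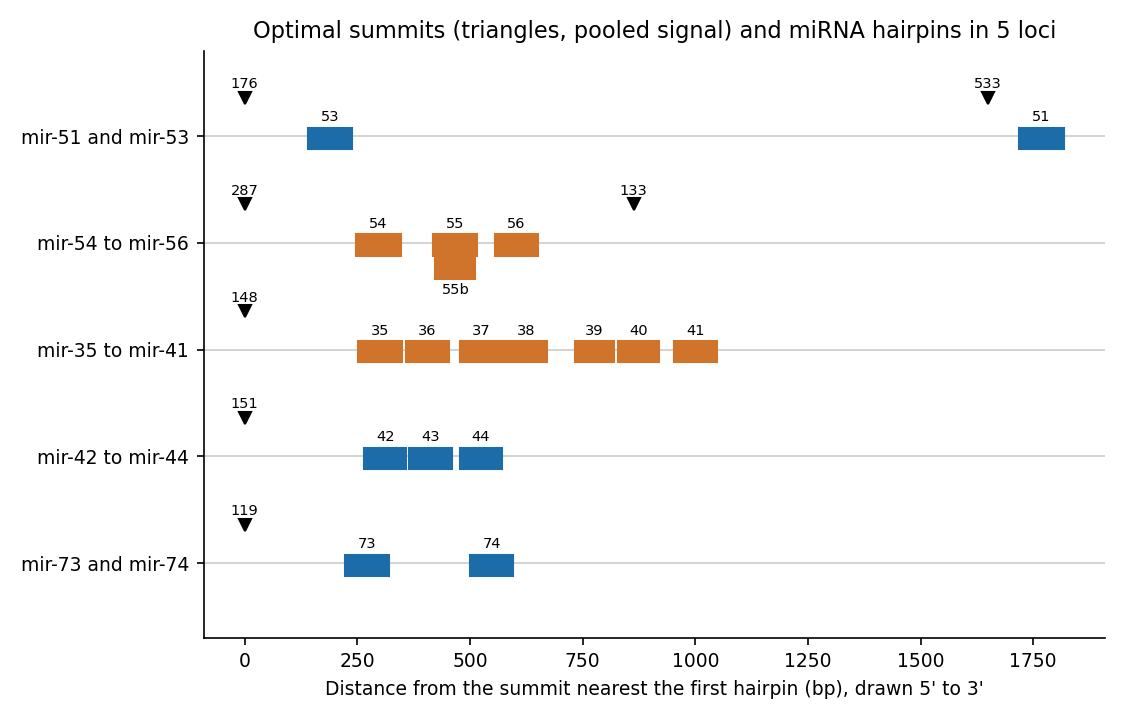
Hairpins (boxes, named by number, blue intergenic and orange inside a protein-coding gene) and optimal summits (triangles, with pooled signal) in 5 loci, drawn 5' to 3' and aligned on the summit before the first hairpin. Each of the 5 loci has a summit 140 to 265 bp before its first hairpin, and mir-51 and the oppositely transcribed mir-55b have a further one each.

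All 8 genes of the mir-35 family had a summit, on 2 summits, each before the first hairpin of a cluster on chromosome II. The 7 genes mir-35 to mir-41 span 797 bp inside an intron of Y62F5A.9 on the opposite strand. Their summit lay 252 bp upstream of mir-35 with a pooled signal of 148 (rank 1025). The replicates were alike there, with 75.0 in replicate 1 (rank 908) and 73.1 in replicate 2 (rank 1286). The ncRNA gene Y62F5A.16 lies within 200 bp. With 500 bp upstream in place of 1000, the windows of mir-38 to mir-41 no longer reached this summit.

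The eighth gene, mir-42, heads a cluster of 308 bp with mir-43 and mir-44, each of which has a different seed. The summit lay 265 bp upstream of mir-42 in intergenic DNA, with a pooled signal of 151 (rank 969). No noncoding gene of the classes searched lay within 200 bp, and no protein-coding promoter window held it. Replicate 1 gave 67.8 (rank 1138) and replicate 2 gave 96.4 (rank 679). This summit also accounts for the single member of the mir-44 family with a summit, mir-44, and for 1 of 2 in the mir-2 family, mir-43.

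The other listed families, whose lists do not always match a shared seed, had a summit at some of their genes or at none. The mir-58 family as listed, related to bantam of flies, had a summit at 2 of 5 genes, mir-58.1 and mir-80. Of these, mir-58.1 carries the seed GAGAUCG. The seed GAGAUCA is shared by 6 genes, with mir-58c, not on that list, among them, and only mir-80 of the 6 had a summit. That of mir-58.1 lay 262 bp upstream in an intron of Y67D8A.2, near the ncRNA gene Y67D8A.6, and 10552 bp from the 5' end of that host, with a pooled signal of 205 (rank 502), 99.8 in replicate 1 and 111 in replicate 2. That of mir-80 lay 290 bp upstream in intergenic DNA with 196 (rank 565). Near it replicate 2 gave 109 and replicate 1 had peaks of 90.7 (rank 602) and 74.9 (rank 910). Of the rest of the family, mir-81 reached only 90.6 in the pooled relaxed list and mir-82 only 47.9, and mir-58.2 had no peak in any list.

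The mir-2 family had 2 of 4 genes with a summit. At mir-2 itself, in an intron of ppfr-1, there were 2 summits, 340 bp upstream with a pooled signal of 154 and 543 bp upstream with 133. Replicate 2 gave 91.2 and 86.8 for them, while replicate 1 gave 67.4 (rank 1154) and 48.0 (rank 2609), so the outer one was past rank 2129 in replicate 1. The ncRNA gene F16A11.5 lies within 200 bp of both, and the outer summit falls in an exon of it. The mir-72 family as listed had a summit at 2 of 3 genes, mir-73 and mir-74. The seed GGCAAGA is shared by 6 genes, of which only these 2 had one. They share a summit 222 bp upstream of mir-73 with a pooled signal of 119 (rank 1613), 59.8 in replicate 1 and 71.3 in replicate 2. That summit lies in an exon of the ncRNA gene T24D8.11. None of the 5 genes of the mir-64 family had an optimal or a pooled relaxed peak. The clustered mir-229, mir-64, mir-65 and mir-66 did have a peak of 82.1 (rank 1002) in replicate 2 and none in replicate 1.

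**Figure D4:**
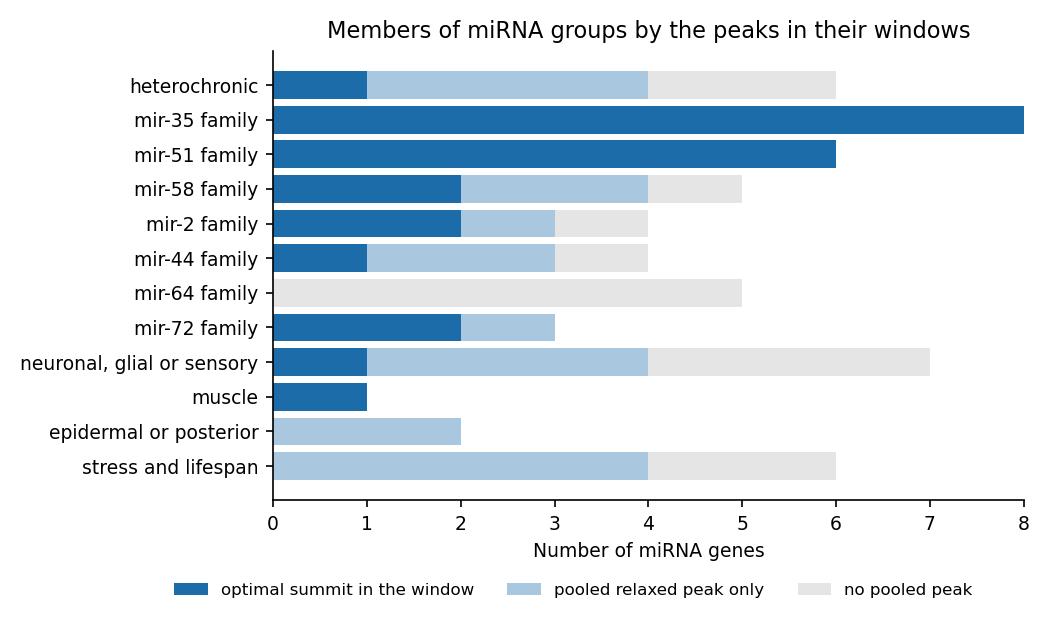
Number of genes in each group with an optimal summit, with a pooled relaxed peak only, or with no pooled peak in the window. The bars of the mir-35 family (8 genes) and the mir-51 family (6 genes) are filled by optimal summits, and that of the mir-64 family (5 genes) has no pooled peak.

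Among the heterochronic genes, which time larval cell fates, 1 of 6 had a summit, beside 12.6% of all 261 miRNA genes. That was mir-241, a let-7 relative, with the weakest pooled signal of the 23 summits, 113 (rank 1802), 487 bp upstream and near the ncRNA gene F56A12.8. Replicate 1 gave 76.1 (rank 880) and replicate 2 gave 49.2 (rank 3698), so it was past rank 2129 in replicate 2. Neither lin-4 nor let-7 had an optimal summit in its window. The pooled relaxed peak nearest to lin-4 stood 271 bp upstream at 59.1 (rank 11149), the strongest in its window was at 70.4 (rank 6744), and the one inside the let-7 record was at 50.3 (rank 16809). The nearest optimal summit to let-7, with a signal of 148 (rank 1017), lay 1822 bp upstream and so entered only a window of 2000 bp. That longer reach added 10 genes in all, let-7 and mir-71 among them.

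Genes with known roles in nerve, glia and muscle gave 2 summits. mir-228, a glial miRNA, had one 233 bp upstream at a pooled signal of 167 (rank 780), in an exon of the ncRNA gene T12E12.44. Replicate 1 was the higher there, with 97.6 (rank 500) against 70.4 (rank 1417). It was the only 1 of the 7 genes listed as neuronal, glial or sensory. mir-1, the conserved muscle miRNA, had one 438 bp upstream with 138 (rank 1197), near the ncRNA gene T09B4.17. At mir-1, replicate 2 gave 91.1 (rank 773) and replicate 1 gave 44.5 (rank 3156). lsy-6, which sets the asymmetry of the ASE taste neurons, had no peak in its window in any of the 4 lists, and its nearest optimal summit was 25441 bp downstream. Of the 2 genes listed as epidermal or posterior (mir-57 and mir-79) and the 6 listed for stress and lifespan, none had an optimal summit. Over all 261 miRNA genes the share was 12.6%, and these small groups were not tested against it.

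The other summits belonged to single genes of mixed kinds. mir-5549 had the highest signal among them, 210 (rank 476), with 118 in replicate 1 and 88.5 in replicate 2. That summit lay 7 bp upstream of the gene and also in the promoter windows of eef-1A.1, a translation elongation factor, and rfc-4, a clamp loader subunit. Its place therefore does not single out the miRNA. mir-8186.2 shared its summit, 179 in the pooled list and 334 bp upstream, with the promoter window of gmeb-1.

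Of the genes inside hosts, mir-90 in K01F9.2 had a summit within 500 bp upstream at 199 (rank 544), with 113 in replicate 1 and 90.4 in replicate 2. mir-8192, in flcn-1, had one 39 bp upstream at 193 (rank 576), with 106 and 90.2. mir-62, which is spliced out as a short intron of ugt-50, had one 491 bp upstream at 152 (rank 958), with 80.4 and 72.4. That summit is 544 bp from the 5' end of ugt-50, outside its promoter window. mir-87, in kup-1, had one 201 bp upstream at 120 (rank 1596), with 53.9 and 68.4, and it falls in an exon of the ncRNA gene F10C2.11. These 4 hosts are on the same strand as the miRNA, and replicate 1 was the higher in 3 of them.

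The remaining intergenic genes had signals below the median of the optimal list. mir-244 had a summit 173 bp upstream at 132 (rank 1331), with 64.6 in replicate 1 and 65.1 in replicate 2. mir-2211 had one 71 bp past its 5' end at 129 (rank 1384), with 51.1 (rank 2197) and 79.8 (rank 1058). Genes numbered 1000 or above, which were mostly named later from sequencing of small RNAs, had a summit in 4 of 123 cases (3.25%) and the other names in 29 of 138 (21.0%). Among the 29 are all 15 genes that share 4 summits in clusters, so that share counts some summits more than once. The split by number was chosen after the values were seen and has no test.

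Both replicates had a peak within 200 bp of each of the 23 summits, as they did for 2112 of all 2129 optimal summits. The optimal list was itself derived from both replicates. Replicate 2 signal was higher than replicate 1 by a median log2 ratio of 0.18 over 2112 matched optimal peaks, and ratios below are relative to that. At the 23 summits the centred log2 ratio had a median of 0.16 and a standard deviation of 0.48, and it ranged from -0.81 at mir-241 to 0.92 at mir-52. With the strongest replicate peak within 200 bp in place of the nearest, a choice made after the values were seen, mir-52 fell to -0.22 and the highest became 0.85, at mir-1. None of the 23 differed by more than 2-fold, against 78 of the 2112. Across the 23 summits the signals of the replicates had a Spearman rho of 0.283 and log2 signals a Pearson r of 0.591, a description over peaks that share libraries. Among the 2129 strongest peaks of a replicate, replicate 1 held 19 of the summits, replicate 2 held 22 and both held 18. The 5 that missed one were mir-1, the outer summit of mir-2, mir-55b, mir-2211 and mir-241. The same counts over all optimal summits are not given here, so these describe the 23 only.

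**Figure D5:**
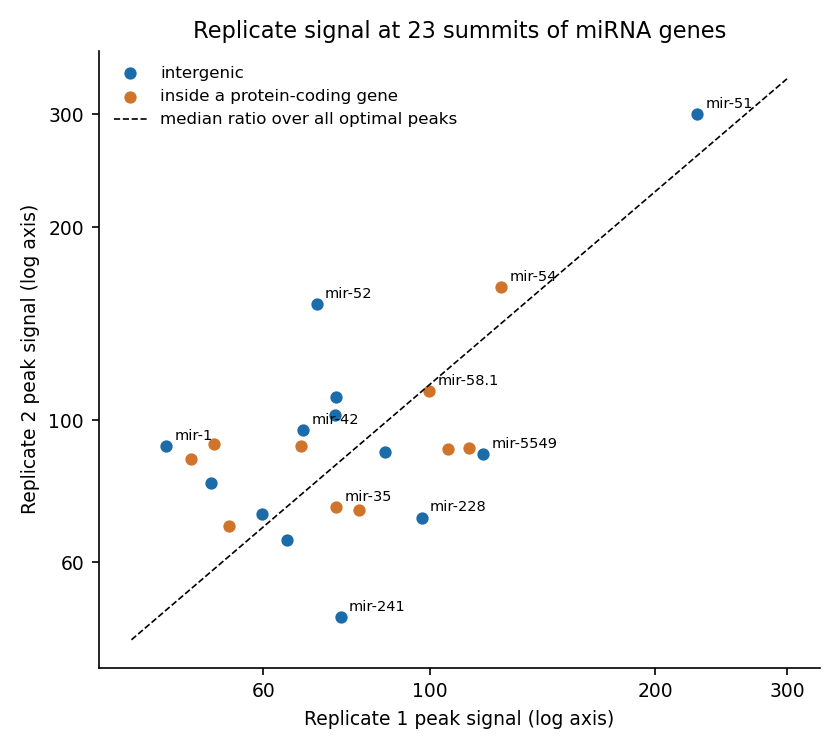
Signal in replicate 1 and replicate 2 at the 23 summits, both on log axes, coloured by the place of the nearest miRNA gene. The dashed line is the median ratio over all optimal peaks, and mir-51 is highest in both replicates while mir-52, mir-1 and mir-241 lie farthest from the line.

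Signal in these summits was close to that of the whole list. The median pooled signal was 154 at the 23 summits and 145.7 over the 2129, and 15 of the 23 were in the stronger part of the list. All but mir-51 ranked past the first 100. The difference in median was not tested.

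Weaker peaks filled more windows. The pooled relaxed list of 30000 peaks had a summit in 130 of the 261 windows (49.8%), against 40.3% over all other genes by the same rule. That background mixes the same gene classes as before, piRNA genes among them. Shares by class are not given here for the relaxed list, and the difference was not tested. The shares for intergenic and inside genes were 49.3% and 50.0%. Replicate 1 alone had a peak in 116 windows and replicate 2 in 110, and 81 genes had one in all 3 lists. Of the 228 genes with no optimal summit, 97 had a pooled relaxed peak, with signals from 37.6 to 104. A further 23 had a peak in a replicate only, and 108 genes had no peak in any list. In the 82 windows with a peak in both replicates, the strongest peaks lay within 200 bp of each other in 64. Signals of the strongest peaks in the 82 windows had a Spearman rho of 0.797. Clustered genes such as mir-35 to mir-41 enter the same peaks repeatedly, so these windows are not independent. For the counts by replicate, in both replicates or in all 3 lists, shares over all other genes are not given here.

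Just under the threshold stood mir-4929 at 104 (rank 2235), mir-47 at 101 (rank 2371), mir-8204 at 101 (rank 2409) and mir-8212 at 98.6 (rank 2540). The other genes of the 10 strongest without an optimal summit were mir-81, mir-124, mir-253, mir-256, mir-79 and mir-2216, with pooled signals from 79.0 to 90.6. mir-124, a miRNA of sensory neurons inside trpa-1, gave 35.1 in replicate 1 and 52.6 in replicate 2, at 87.5 in the pooled list. mir-4929 gave 37.7 (rank 5135) and 78.5 (rank 1094), so it stood among the 2129 strongest in replicate 2 only.

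Genes were also grouped by seed alone. Mature strands were annotated for 260 genes, and 16 seeds were shared by 3 or more of them. A summit lay in the window of at least 1 gene for 9 of these seeds and of every gene for 2, ACCCGUA and CACCGGG. The seed GAUAUGU had 2 of 3 genes, mir-62 and mir-90, which lie on different chromosomes and have summits of their own. Seed counts in clusters are not independent, since clustered copies share a summit.

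The DNA at the summits rarely held the core motif written for Zic factors. CAGCAGG or CAGCGGG, on either strand within 200 bp centred on the summit, occurred at 2 of the 23 (8.70%, interval 1.07% to 28.0%), mir-80 and mir-244, against 6.58% of all optimal summits. In windows of the same length 1000 bp to either side it occurred at 1 of 46 (2.17%), and around all optimal summits at 1.74%. At mir-80 the core stood 35 bp from the summit. Absence of these letters says only that they are not in the 200 bp.

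Other motifs were searched after the sequences had been read. GAGAG, on either strand, occurred at 18 of the 23 (78.3%, interval 56.3% to 92.5%) and in 63.0% of all optimal summits, but in 14 of the 46 flanking windows (30.4%). The summits without it were those of mir-51, mir-52, mir-55b and both of mir-2. TATAAA occurred at 3 of the 23 (13.0%), against 9.11% of all optimal summits and 21.7% of the flanks. GGTTCGA, the core of the internal promoter of tRNA genes, occurred at 2 of the 23, mir-51 and mir-8186.2, against 6.25% of all optimal summits. GC content was 53.0% at the median of the 23 summits and 47.5% over all optimal summits, and the part of composition in these counts was not tested.

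Genes for proteins of the miRNA pathway were examined by their promoter windows, and 6 of the 20 listed (30.0%, interval 11.9% to 54.3%) held an optimal summit, against 6.29% of the 19973 protein-coding genes. The 3 Argonaute genes of the list, alg-1, alg-2 and alg-5, were all among them. At alg-5 the signal was 677 (rank 10), with 308 in replicate 1 and 364 in replicate 2, but the summit 864 bp upstream also lies in the promoter windows of the histone genes his-67 and his-68. At alg-2 it was 147 (rank 1028), with 41.0 and 106, and at alg-1 118 (rank 1640), with 39.3 and 70.4. Both of these were higher in replicate 2 and past rank 2129 in replicate 1. The GW182-type partner of the Argonautes, ain-1, had 439 (rank 49), with 213 and 227. nhl-2, a cofactor of miRNA silencing, had 350 (rank 94), shared with tag-340 and near the ncRNA gene F26F4.14, and cgh-1, an RNA helicase, had 188 (rank 616). The processing genes drsh-1, pash-1 and dcr-1 had none, and within 500 bp upstream only 1 of the 20 genes kept a summit. The share of all protein-coding genes within 500 bp is not given here.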

How the data were processed

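The sources were the authors' deposited peak lists on ce11. Per the deposited lists, the signal of each peak is the authors' own value, and its normalization between lists is not stated there. Which caller and aligner were used, and in which versions, is likewise not given in the sources used here. Used were 4 lists, namely the optimal list, the pooled relaxed list and a relaxed list for each replicate. The ce10 lists were not used here, and library depth is unknown.

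Genes came from Ensembl release 115 on WBcel235 and sequence from the RefSeq copy of that assembly. Member names are RefSeq symbols matched by WormBase gene ID, which replaced the Ensembl name for 42 genes. Positions are 1-based. A gene counted when the summit of a peak fell in its window. Replicate peaks were the nearest within 200 bp of an optimal summit. Intervals are exact Clopper-Pearson at 95%. With 1 group and no control, no condition was compared and no p-value computed. Named were all members with an optimal summit, lsy-6, let-7 and lin-4, the 10 strongest without one, and listed group or pathway genes with a summit. Other genes named without an optimal summit are fellow members of those lists or were chosen after their values were seen. The members and lists were chosen with earlier results of these data known. Window counting and matching were tested on simulated data. Python 3.11.15 was used with numpy 2.4.6, pandas 2.3.3, scipy 1.17.1 and matplotlib 3.10.9.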

Additional observations from a re-analysis of the deposited data

How the results depend on the processing

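The share of miRNA genes with an optimal summit (12.6%) moved most with the reach of the window and with summits beside noncoding genes. For all other genes the share was computed with the main window only (6.53%). Whether other genes move alike under the settings below was not tested, so those shares cannot be set beside 6.53%. With 200 bp to either side of the gene body it was 2.68% (intergenic 3.95%, inside 0.943%). Without summits within 200 bp of a noncoding gene it was 4.98% (intergenic 5.92%, inside 3.77%). Counting as inside only genes on the strand of the host gave 9.46% for inside and 14.1% for intergenic genes. Under these 3 settings the intergenic share was the higher. In the promoters of the miRNA pathway list, 500 bp upstream left 1 gene of 6. With the 2129 strongest peaks of 1 replicate instead, the share ranged from 13.0% (without replicate 2) to 14.9% (without replicate 1). The intergenic share ranged from 9.21% to 10.5%, the inside share from 18.9% to 21.7%, the Zic-type core from 7.14% to 7.69% and the pathway count from 4 to 6. mir-241 was lost without replicate 1, and mir-1, mir-2211 and mir-55b without replicate 2. The intergenic share fell to 6.58% in the stronger part of the list and the inside share to 11.3% with 500 bp upstream. The median centred replicate ratio (0.16) was 0.31 with ranks and 0.07 with the strongest replicate peak, both within the spread of 0.48 across summits. Of the checks on whether a single gene has a summit, 258 kept the answer and 66 changed it. Depth is unknown, so absence of a peak cannot be separated from limited depth. No paired analysis was possible because the samples form 1 group.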
